A study of Mus musculus with 18 samples.

Results

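The genes of hepatic glucose use studied here, 8 in number, were followed through RNA-seq, ATAC-seq and H3K9me2 ChIP-seq of mouse liver. They were taken by symbol from the deposited transcript table, and all 8 members of the given list were found among the 15572 genes of that table: Slc2a2, Gckr, Khk, Pfkl, Pfkfb1, Pfkfb3, Pgk1 and Pklr. The list names them by function, without a cutoff on any measured value, but it was drawn up with earlier results of these data known. The study asked what the histone demethylase JMJD1C does in the liver after feeding. All mice were C57BL/6J. RNA-seq compared 2 wild-type (WT) refed libraries with 2 libraries from refed JMJD1C-LKO mice, which carry floxed Jmjd1c alleles and Cre driven by the albumin promoter, active in hepatocytes, so that other liver cells keep the gene. ATAC-seq, which marks accessible DNA, covered 2 livers each of fasted WT, refed WT and refed JMJD1C-LKO mice, and H3K9me2 ChIP-seq from 2 WT fasted and 2 WT refed livers, each against the input of its own replicate. The RNA of each RNA-seq library was pooled before sequencing, and the number of mice in a pool is not given in the sources used here, whereas each peak sample was a single liver. Refed mice received a high-carbohydrate diet for 6 h after an overnight fast per the labels, whereas the study's methods give a longer refeeding for its feeding experiments in general, and all mice had been on chow for 6 to 8 weeks. The labels give no age.

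Glucose enters hepatocytes through the transporter encoded by Slc2a2 (GLUT2), which lets it pass in both directions. Glycolysis then runs past a few controlled steps. Gckr encodes the glucokinase regulatory protein, which holds the phosphorylating enzyme of the hepatocyte in the nucleus during fasting. Pfkl encodes the liver subunit of phosphofructokinase, and Pfkfb1 and Pfkfb3 encode bifunctional enzymes that make and break down fructose 2,6-bisphosphate, its activator. Pgk1 encodes phosphoglycerate kinase, an ATP-forming enzyme, and Pklr encodes the pyruvate kinase of liver and red blood cells, the last step. Khk encodes ketohexokinase, which brings fructose into metabolism without passing the phosphofructokinase step. After a carbohydrate meal the liver turns glycolytic carbon toward fatty acids, and Pklr is a textbook target of the glucose-responsive factor ChREBP, encoded by Mlxipl.

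In the refed liver, Pklr fell and Pfkfb1 and Pfkfb3 rose in the libraries labelled JMJD1C-LKO, and the other 5 genes did not pass the test. Pklr stood at 0.464 times, Pfkfb1 at 1.65 times and Pfkfb3 at 1.36 times its WT level. By edgeR's quasi-likelihood test with Benjamini-Hochberg adjustment over all 14151 genes tested, 3 of the 8 genes were called at an adjusted p under 0.05, 2 higher and 1 lower. Over all genes tested, 28.0% were called, 14.6% higher and 13.4% lower, so that a count of 3 in 8 lies close to the background. The number of genes called over the whole genome was 3958, and 1265 or 1068 without WT replicate 1 or 2. Library totals lay between 51265128 and 54400509 estimated counts. Jmjd1c itself read 21.99 and 22.8 CPM (counts scaled to a library of the same size by edgeR) in the WT and 20.0 and 20.5 in the LKO-labelled libraries (log2 fold change −0.14 ± 0.08 SE, adjusted p = 0.233 in edgeR). The study itself reports a much larger fall of Jmjd1c mRNA in JMJD1C-LKO liver by RT-qPCR, and no detectable protein. The deleted exons are not given in the sources used here and the count covers the whole gene, so that the RNA-seq level does not check the label.

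Marker genes of some non-hepatocyte cells also moved with genotype. All 6 marker genes of Kupffer cells and macrophages were higher in the LKO-labelled libraries, with summed levels of 194 and 198 CPM in WT against 380 and 546 CPM, as were 5 of 6 endothelial markers (93.6 and 96.5 against 130 and 175 CPM). The summed hepatocyte markers, led by albumin, were 115600 and 113100 CPM in WT and 115300 and 103300 CPM in the LKO-labelled libraries. Of these 6 genes 1, Hpd, was called higher and 0 lower. In 4 of them both LKO-labelled values lay above both WT values, and in 1, albumin, below. Over all genes tested, 33.7% lay above and 33.8% below in this way, and 14.6% were called higher and 13.4% lower. Of the stellate cell markers 1 of 6 was called, and of the cholangiocyte markers 0 of 5. Of 4 erythroid markers 1, Alas2, was called higher, and their sums differed within WT (1021 and 567 CPM, against 893 and 883). Of 5 tested T and B lymphocyte markers 1, Cd3e, was called higher (sums 2.93 and 2.95 against 4.84 and 6.55 CPM). Of 3 tested skeletal muscle markers 1, Myh4, was called lower (sums 3.37 and 2.16 against 1.72 and 1.34 CPM). Acinar pancreas markers summed to at most 1.01 CPM. In such bulk libraries, a change in the number of cells of a type and a change in RNA per cell cannot be told apart.

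**Figure D1:**
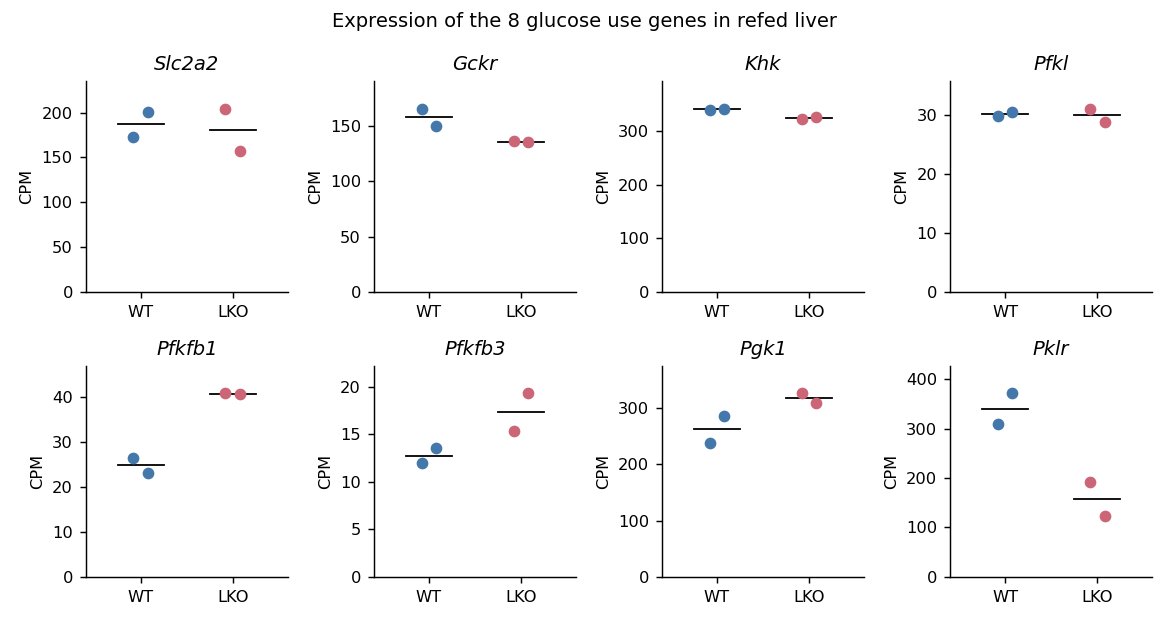
Level of each gene in the 4 RNA-seq libraries of refed liver, in CPM scaled by TMM factors on axes that start at 0. Points are libraries (blue WT, red labelled JMJD1C-LKO) and lines are means of 2 libraries. Pklr falls below and Pfkfb1 and Pfkfb3 lie above the WT points, and those of Slc2a2 and Pfkl overlap.

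Pklr had the largest change of the 8 genes. Its level was 309 and 372 CPM in the WT libraries and 192 and 123.8 CPM in the LKO-labelled libraries. Both LKO-labelled values lay below both WT values, and the 2 LKO-labelled libraries differed by more than the 2 WT libraries. The log2 fold change was −1.11 ± 0.18 (SE, 2 libraries against 2, adjusted p = 0.00201 in edgeR). Leaving out each library in turn gave log2 fold changes from −1.47 to −0.82, all past the threshold.

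Pklr lies on the plus strand of chromosome 3 (GRCm38.p6, chr3:89136142-89146594) and has a pair of starts in RefSeq. The downstream start at position 89136623, that of transcript NM_001099779, held 90.6% to 90.7% of the estimated counts of the gene in all 4 libraries, and the upstream start of NM_013631 at position 89136142 held 9.28% to 9.40%. The estimated split between the starts thus hardly moved while the level of the gene fell. It rests on how the counting divided reads that fit both transcripts, so the use of each start was not measured directly. At transcript level the log2 fold change was −1.10 for both, and neither passed the test over all 22296 transcripts (adjusted p = 0.0648 and 0.0664 in edgeR). There the background was 3.50% of transcripts called.

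The window from 250 bases before to 50 bases after the downstream Pklr start (chr3:89136373-89136672, plus strand, RefSeq GRCm38.p6) is shown because it belongs to the gene that fell most. A paired E-box pattern, CACGNGNNNNNCNCGTG, the general form of the element that glucose-responsive factors are known to bind, occurs in it once, and its 17 bases are in capitals.
Pklr: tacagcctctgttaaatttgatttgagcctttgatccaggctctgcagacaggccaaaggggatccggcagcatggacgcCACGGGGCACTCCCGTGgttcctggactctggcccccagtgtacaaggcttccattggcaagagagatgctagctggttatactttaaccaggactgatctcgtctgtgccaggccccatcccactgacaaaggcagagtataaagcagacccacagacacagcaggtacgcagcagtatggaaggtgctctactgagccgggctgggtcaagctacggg
The pattern reads the same on both strands and does not overlap an E-box CACGTG there. Its first base lies 170 bases upstream of the start. The pattern was found in 15 of 32851 promoter windows of the same length, 0.0457%. Among the 13 windows of the 8 genes, it was present in this one only. Looser forms of the element were not searched, so these counts hold for this form alone and are no test of the gene.

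The genes whose profile over the 4 libraries lay nearest to that of Pklr, by the Euclidean distance of log2 CPM centred on each gene's mean, were Kcnab3, Kcnk10 and Klf10, at distances of 0.102, 0.105 and 0.147. Kcnab3, a potassium channel subunit, read 1.33 and 1.69 CPM in WT and 0.789 and 0.544 CPM in the LKO-labelled libraries. Kcnk10, also a potassium channel, read 1.56 and 1.84 against 0.992 and 0.563 CPM. Klf10, a zinc finger transcription factor, was expressed at a level nearer to that of Pklr, with 82.2 and 88.3 against 47.8 and 28.9 CPM. All 3 were called lower. Because they were picked for their likeness to Pklr over the same libraries, a similar fall follows from the choice. The calls of Kcnab3 and Kcnk10 did not hold in most fits that left out 1 library.

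The 2 genes of the bifunctional enzymes moved the other way. Pfkfb1, which encodes the form known from liver and muscle, read 26.4 and 23.0 CPM in the WT libraries and 40.7 and 40.6 CPM in the LKO-labelled libraries. The groups did not overlap, and the LKO-labelled pair differed by less than the WT pair. The log2 fold change was 0.72 ± 0.09 (SE, adjusted p = 0.000652 in edgeR), and leaving out each library in turn gave 0.62 to 0.82, all past the threshold.

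Pfkfb1 lies on the plus strand of chromosome X (chrX:150587445-150643878) and has 4 starts in RefSeq. All of its counts were assigned to NM_008824, which starts at position 150589916, so the deposited table holds no count for the other starts. This transcript was the only one called among the 19 transcripts of the 8 genes (log2 fold change 0.72 ± 0.10, adjusted p = 0.0358 in edgeR), and leaving out any 1 of the 4 libraries, or adding the replicate number as a block, brought that count to 0. Its promoter window (chrX:150589666-150589965, plus strand) is shown as that of the gene that rose most, and it holds neither pattern.
Pfkfb1: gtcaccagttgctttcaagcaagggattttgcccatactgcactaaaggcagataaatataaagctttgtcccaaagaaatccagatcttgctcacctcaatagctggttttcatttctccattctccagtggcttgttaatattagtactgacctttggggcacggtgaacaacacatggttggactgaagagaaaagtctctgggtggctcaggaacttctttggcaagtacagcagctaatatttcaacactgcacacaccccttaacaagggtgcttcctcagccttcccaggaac

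Pfkfb3 encodes the form known for its high kinase activity. It read 11.9 and 13.6 CPM in the WT and 15.4 and 19.3 CPM in the LKO-labelled libraries. The groups did not overlap, but the lower LKO-labelled value stood close to the higher WT value. The log2 fold change was 0.44 ± 0.13 (SE, adjusted p = 0.0284 in edgeR), and the call was lost without either WT library or without LKO-labelled replicate 2 (log2 fold changes 0.35, 0.54 and 0.27). The Kupffer cell and endothelial sums above ran in the same order over the LKO-labelled libraries, and their part in the Pfkfb3 result was not tested. The gene lies on the minus strand of chromosome 2 (chr2:11471430-11553929), and NM_001177758, which starts at the upstream position 11553929, held 57.1% to 64.0% of its estimated counts. The other 7 transcripts share the start at position 11502090.

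**Figure D2:**
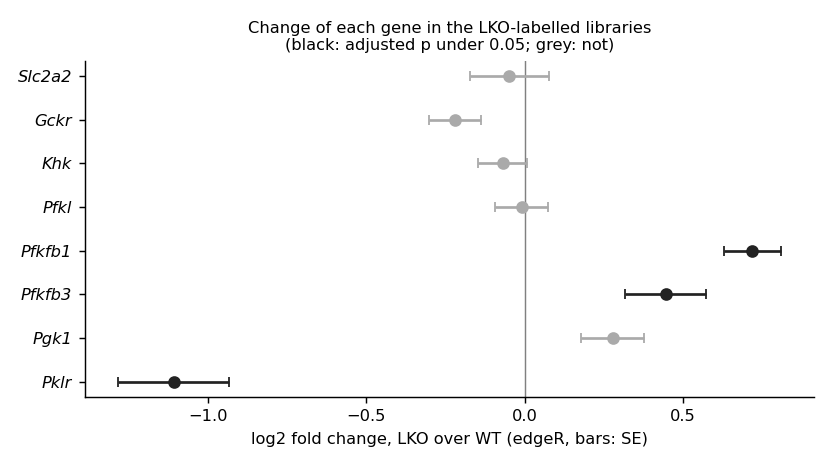
Log2 fold change of each gene, LKO-labelled over WT, with its SE from edgeR (2 libraries against 2). Black points passed an adjusted p of 0.05 over all genes tested: Pklr at −1.11, Pfkfb1 at 0.72 and Pfkfb3 at 0.44.

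Pfkl, the target of the regulator made by these enzymes, read 29.8 and 30.4 CPM in WT and 31.0 and 28.7 CPM in the LKO-labelled libraries. The groups overlapped, and the log2 fold change of −0.01 ± 0.08 (SE) had an adjusted p of 0.944 in edgeR. Pgk1 read 238 and 287 CPM in WT and 327 and 310 CPM in the LKO-labelled libraries. Both LKO-labelled values lay above both WT values, as for 33.7% of all genes tested. The log2 fold change of Pgk1 was 0.28 ± 0.10 (SE, adjusted p = 0.0645 in edgeR), which DESeq2 placed past the threshold (adjusted p = 0.0467).

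Of the genes at the entry of sugar, none was called. Slc2a2 read 173 and 201 CPM in WT and 204 and 157 CPM in the LKO-labelled libraries, with overlapping groups and a log2 fold change of −0.05 ± 0.12 (SE, adjusted p = 0.804 in edgeR). Gckr read 165 and 150 CPM in WT and 136 and 135 CPM in the LKO-labelled libraries. These groups did not overlap, as for 33.8% of all genes in that direction, and the log2 fold change was −0.22 ± 0.08 (SE, adjusted p = 0.0741 in edgeR).

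Khk read 338 and 341 CPM in WT and 322 and 325 CPM in the LKO-labelled libraries, a log2 fold change of −0.07 ± 0.08 (SE, adjusted p = 0.533 in edgeR). Both LKO-labelled values lay below both WT values, but the gap was small beside the SE. The gene lies on the plus strand of chromosome 5 (chr5:30921559-30931248), and 4 RefSeq transcripts share 1 start. Ketohexokinase is known to exist in forms that differ by mutually exclusive exons. In RefSeq, NM_008439 and NM_001349066 have 8 exons each and differ in exon 3 alone, which is 135 bases long in both. These exons are printed because they tell the main liver transcript from its alternative, with the 73 positions that hold the same base in both (54.1%) in capitals. They lie at chr5:30927022-30927156 and chr5:30926688-30926822, both on the plus strand.
NM_008439: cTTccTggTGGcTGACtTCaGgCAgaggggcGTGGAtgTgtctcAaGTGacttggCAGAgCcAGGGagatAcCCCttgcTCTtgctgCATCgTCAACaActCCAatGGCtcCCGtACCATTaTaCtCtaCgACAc
NM_001349066: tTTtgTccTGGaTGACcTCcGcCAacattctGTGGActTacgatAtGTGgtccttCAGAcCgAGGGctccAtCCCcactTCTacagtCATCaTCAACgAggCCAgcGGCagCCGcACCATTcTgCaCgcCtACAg
NM_008439 held 80.5% and 78.3% of the estimated Khk counts in WT and 85.4% and 84.1% in the LKO-labelled libraries. NM_001349066 held 3.75% and 5.05% in WT and 1.85% and 2.42% in the LKO-labelled libraries, so the groups did not overlap for either. How often transcript shares do not overlap was not computed. For gene levels in CPM it was 33.7% of genes with LKO-labelled above and 33.8% below. The log2 fold change of NM_001349066 was −1.11 ± 0.22 (SE), which did not pass the test over all transcripts (adjusted p = 0.0629 in edgeR), and that of NM_008439 was 0.03 ± 0.07 (adjusted p = 0.844). The remaining counts lay with NM_001310524, which has both exons, and NM_001310525, which has neither. Their shares overlapped between the groups and differed within the LKO-labelled pair. NM_001310524 held 9.15% and 5.46% there, and NM_001310525 held 3.56% and 8%. Such shares rest on how the counting divided reads that fit several transcripts.

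The promoter window of Khk (chr5:30921309-30921608, plus strand) is shown with its E-box CACGTG in capitals, the core motif that USF-1 and ChREBP are known to bind.
Khk: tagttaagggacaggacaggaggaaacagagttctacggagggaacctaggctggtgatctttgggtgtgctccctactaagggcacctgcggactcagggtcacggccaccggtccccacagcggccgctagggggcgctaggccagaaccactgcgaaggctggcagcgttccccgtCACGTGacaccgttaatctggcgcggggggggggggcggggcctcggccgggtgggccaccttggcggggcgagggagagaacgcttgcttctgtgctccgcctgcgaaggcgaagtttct
This E-box starts 71 bases upstream of the start. The motif, a palindrome read on both strands at once, was found in 7.15% of the 32851 windows, and among the 13 windows of the 8 genes in that of Khk and in the one at the downstream Pfkfb3 start.

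Per kilobase of transcript, Khk had the highest WT level of the 8 genes, with 232 and 234 CPM per kb. Pgk1 followed with 131 and 157 CPM per kb and Pklr with 115 and 139, and these ranges overlapped. Gckr (81.4 and 73.8 CPM per kb) and Slc2a2 (67.3 and 78.1) also overlapped. Pfkfb1 came next with 15.2 and 13.2 CPM per kb, then Pfkl with 7.98 and 8.14 and Pfkfb3 with 2.49 and 2.84. In the LKO-labelled libraries Pklr read 71.9 and 46.3 CPM per kb, in the range of Gckr (67.0 and 66.4) and Slc2a2 (79.5 and 61.1).

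Around the 8 genes, 105 genes of 7 pathway lists were examined, of which 101 were tested. Of these, 18 rose and 17 fell, and the median log2 fold change was −0.002, against 0.006 over all genes. That is a share called a little above the 28.0% of all genes. Without WT replicate 1 or 2, 17 and 18 of the pathway genes were called, against 8.72% and 7.36% of all genes in the same fits.

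**Figure D3:**
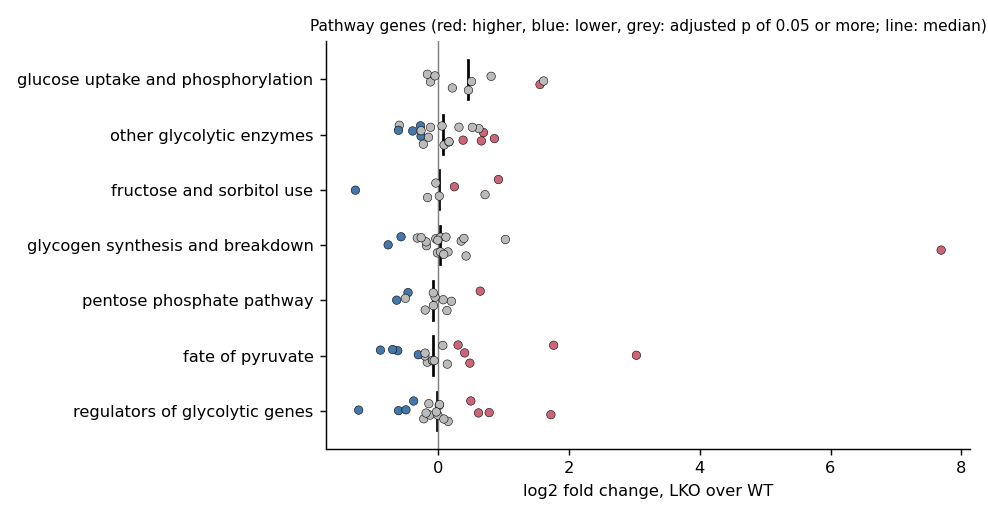
Log2 fold change, LKO-labelled over WT, of the tested genes of 7 pathway lists. Each point is a gene (red higher, blue lower, grey not past an adjusted p of 0.05), the black line is the median of the list, and points are spread vertically only to be seen. Most points lie near 0, and Ppp1r3g stands alone at 7.69.

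Of the 9 tested genes of glucose uptake and phosphorylation, 1 rose and none fell, beside 28.0% of all genes called. This count rose without LKO-labelled replicate 1, as did the share of all genes. The riser was Hk3, a hexokinase known from myeloid cells, with 3.26 and 3.14 CPM in WT and 6.96 and 11.9 CPM in the LKO-labelled libraries (log2 fold change 1.56 ± 0.24 SE, adjusted p = 0.00162 in edgeR). The Kupffer cell markers were higher in the same libraries, and their part in this value was not tested. The transporter Slc2a1 (log2 fold change 0.22) and the hexokinases Hk1 (0.51) and Hk2 (0.46) were not called, Hk2 only passing without LKO-labelled replicate 1 (0.75, adjusted p = 0.00867 in edgeR).

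Among the 20 tested other glycolytic enzymes, 4 rose and 4 fell, with a median log2 fold change of 0.08. These calls stood beside 28.0% of all genes, and without either WT library both their number and that share fell. Pfkfb2, another gene of the bifunctional enzymes, read 36.8 and 37.3 CPM in WT and 52.7 and 64.4 CPM in the LKO-labelled libraries (0.66 ± 0.10 SE, adjusted p = 0.00171 in edgeR). Pfkfb4, the last of that family and also named after its value was seen, read 0.748 to 1.03 CPM and was not called. Ldha, the lactate dehydrogenase subunit, rose from 880 and 897 CPM to 1152 and 1163 CPM (log2 fold change 0.38). Gpi1, glucose phosphate isomerase, fell from 294 and 317 CPM to 243 and 224 CPM (log2 fold change −0.39). Without either WT library, neither Ldha (adjusted p = 0.102 and 0.0908 in edgeR) nor Gpi1 (0.0564 and 0.126) was called. Gapdh and Tpi1 were not called, at log2 fold changes of 0.06 and 0.17. Pkm, the gene of the other pyruvate kinase, was likewise named after its value was seen, and read 10.1 and 9.70 CPM in WT and 15.2 and 20.7 CPM in the LKO-labelled libraries (log2 fold change 0.86 ± 0.14 SE, adjusted p = 0.00257 in edgeR), opposite to Pklr. The part of non-hepatocyte cells in it was not tested.

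Of the 7 genes of fructose and sorbitol use, 2 rose and 1 fell, beside 28.0% of all genes called. Without WT replicate 1 the count fell, as did the share of all genes. The one that fell was Tkfc, the triokinase that acts after Khk in fructose use, which read 907 and 974 CPM in WT and 449.5 and 334 CPM in the LKO-labelled libraries (log2 fold change −1.27 ± 0.13 SE, adjusted p = 0.00024 in edgeR). Slc2a5, a fructose transporter, rose from 3.41 and 3.97 CPM to 7.55 and 6.46 CPM (log2 fold change 0.92, adjusted p = 0.00372 in edgeR), a call lost without WT replicate 1 (0.82, adjusted p = 0.0632). Sord and Glyctk, the enzymes of sorbitol and glycerate, were not called, but without LKO-labelled replicate 1 Sord was (log2 fold change −0.27, adjusted p = 0.0342 in edgeR). Of 11 genes of the pentose phosphate pathway, 1 rose and 2 fell, a count of 3 beside 28.0% of all genes called. It fell without either WT library and rose without LKO-labelled replicate 1, as did the share of all genes. The transketolase Tkt fell from 118 and 117 CPM to 74.8 and 76.5 CPM (log2 fold change −0.63), and G6pdx, the first enzyme, rose from 4.21 and 4.47 CPM to 5.53 and 8.00 CPM (0.64, adjusted p = 0.0336 in edgeR). The G6pdx call was lost without either WT library or without LKO-labelled replicate 2 (adjusted p = 0.202, 0.162 and 0.154). Pgd and Taldo1 were not called.

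Of 19 genes of glycogen synthesis and breakdown, 1 rose and 2 fell, beside 28.0% of all genes called. This count rose without LKO-labelled replicate 1, as did the share of all genes. Ppp1r3g, a glycogen-targeting subunit of protein phosphatase 1, read 0.116 and 0.153 CPM in WT and 16.2 and 40.3 CPM in the LKO-labelled libraries (log2 fold change 7.69 ± 0.57 SE, adjusted p = 5.4e-05 in edgeR), a fold that rests on very few WT counts. The main enzymes Gys2, Ugp2, Gbe1 and Pygl were not called. Without LKO-labelled replicate 1 the last 3 passed, at log2 fold changes of −0.39, −0.50 and −0.35.

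Of 17 genes that decide the fate of pyruvate, 5 rose and 4 fell. This count of 9, beside 28.0% of all genes, was 5 without WT replicate 1 and 4 without WT replicate 2, where 8.72% and 7.36% of all genes were called. Pdk4, a kinase that turns off pyruvate dehydrogenase, rose from 1.003 and 1.17 CPM to 5.18 and 12.6 CPM (log2 fold change 3.03 ± 0.39 SE, adjusted p = 0.000689 in edgeR). Pdhb, a subunit of that complex, fell from 163 and 177 CPM to 120 and 101.4 CPM (log2 fold change −0.62), and Me1, the malic enzyme that supplies NADPH for fatty acid synthesis, fell from 185 and 196 CPM to 112 and 94.3 CPM (log2 fold change −0.88). Pdha1 and Mpc1 were not called.

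Of 18 regulators of glycolytic genes, 4 rose and 4 fell. The count of 8 stood beside 28.0% of all genes called. It fell without either WT library and rose without LKO-labelled replicate 1, as did the share of all genes. Mlxipl fell from 446 and 428 CPM to 307 and 314 CPM (log2 fold change −0.49 ± 0.08 SE, adjusted p = 0.0021 in edgeR), and the groups did not overlap. Ppargc1a, a coactivator known from fasting, rose from 8.82 and 8.92 CPM to 25.5 and 33.1 CPM (log2 fold change 1.72 ± 0.13 SE, adjusted p = 5.4e-05 in edgeR). Srebf1, Usf1 and Usf2, the genes of SREBP-1 and the USF factors, had log2 fold changes of −0.002, 0.09 and −0.18 and were not called. Without LKO-labelled replicate 1 Srebf1 passed at −0.28 (adjusted p = 0.0283 in edgeR), and without replicate 2 it stood at 0.23.

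H3K9me2 is a histone mark generally linked with silent chromatin, and JMJD1C is known as an enzyme that removes it. In the summit lists, which give single positions without widths or read counts, all 8 genes had a summit within 1000 bp of a transcript start in at least 1 fasted liver, and 5 in at least 1 refed liver. Livers of the same group differed. WT fasted replicate 1 had a summit at Slc2a2 and Khk only, WT fasted replicate 2 at all 8, and WT refed replicate 1 at none. WT refed replicate 2 had one at 5, namely Slc2a2, Pfkfb1, Pfkfb3, Pgk1 and Pklr. By score the Pfkfb1 summit was near the bottom of that list, at rank 9896 of 9929. The Khk summit, which ranked 357 there, lay just outside the window. With both livers of a group required, 2 of the 8 genes, Slc2a2 and Khk, were marked after fasting and 0 after refeeding.

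The lists differed in length. WT fasted replicates 1 and 2 had lists of 7690 and 13456 summits, and the lists of WT refed replicates 1 and 2 held 1297 and 9929. Of all 26180 annotated genes, 29.3% and 42.7% had a summit within 1000 bp of a start after fasting. After refeeding these shares were 0.233% and 35.1%. WT refed replicate 1 therefore stands apart, and without it the refed count is 5 of 8, the low-ranked Pfkfb1 summit included. Among the 13825 genes tested in RNA-seq that have an annotated start, the shares were higher in 3 of the 4 livers, 51.6%, 74.1% and 61.6%, and 0.123% in the fourth. The share of both fasted livers was 29.1% of all annotated genes and that of both refed livers 0.0420%. Feeding states were not tested against each other, because with 2 livers against 2 the smallest p of a two-sided exact permutation test is 0.333.

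**Figure D4:**
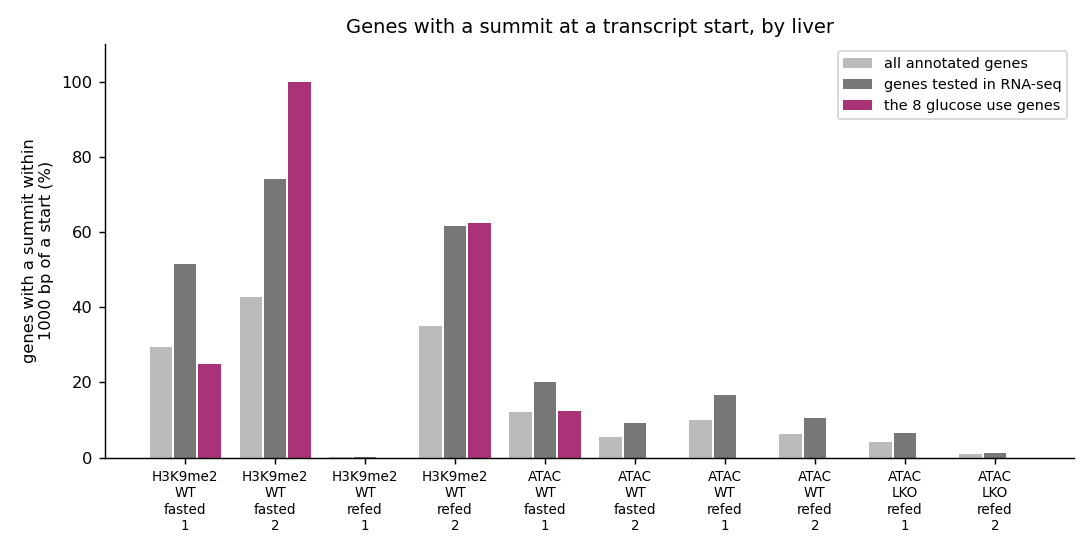
Share of genes, in percent, with a summit within 1000 bp of a transcript start in each liver, for all annotated genes, for genes tested in RNA-seq and for the 8 glucose use genes. The bars of the 8 genes run from 0 to 100% in H3K9me2, and WT refed replicate 1 is near 0 for every set.

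Where a gene was marked in a liver, the summit nearest to a start, 15 in all, lay downstream of it each time, at a median of 358 bp and from 241 to 955 bp, 12 in introns and 3 in exons. A further 3 summits lay within 1000 bp of a start, all at Pfkfb1 in WT fasted replicate 2, 2 of them upstream. Over all genes, 83.2% to 88.6% of the summits near a start lay downstream in the 3 livers with long lists, at medians of 226 to 267 bp. In Slc2a2 (chr3:28697903-28728361, plus strand), the only one of the 8 genes marked in 3 livers, the summit lay 739 and 252 bp downstream of the start after fasting and 827 bp in WT refed replicate 2, in an intron each time. At Pklr it lay 310 bp downstream of the major start in WT fasted replicate 2 and 442 bp in WT refed replicate 2. At Pfkfb3 the positions in these livers, 358 and 357 bp downstream of the start at 11502090, differed by 1 base.

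Khk was marked at 462 and 625 bp in the fasted livers. In WT refed replicate 2 its summit lay 1026 bp downstream, just outside the window, and with a limit of 500 bp neither Slc2a2 nor Khk counted in both fasted livers. Gckr (chr5:31297563-31327302, plus strand) had a summit 241 bp downstream in WT fasted replicate 2 and 1787 bp upstream in WT refed replicate 2. Pfkl (chr10:77986947-78009807, minus strand) had one at 262 bp in WT fasted replicate 2, and none nearer than 107573 bp in WT refed replicate 2. Pgk1 (chrX:106187100-106203699, plus strand) was marked at 334 and 475 bp in the second liver of each state.

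Pfkfb1 held more summits than the other genes, 6 in WT fasted replicate 2 and 1 in WT refed replicate 2. The one nearest to the start of its counted transcript lay 932 bp upstream of it, in WT fasted replicate 2, and the only one in WT refed replicate 2 was 5467 bp downstream of it. The strongest was 302 bp downstream of another RefSeq start, at position 150594428, with others 392 bp upstream of that start and 349 bp upstream and 741 bp downstream of the start at position 150588243.

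**Figure D5:**
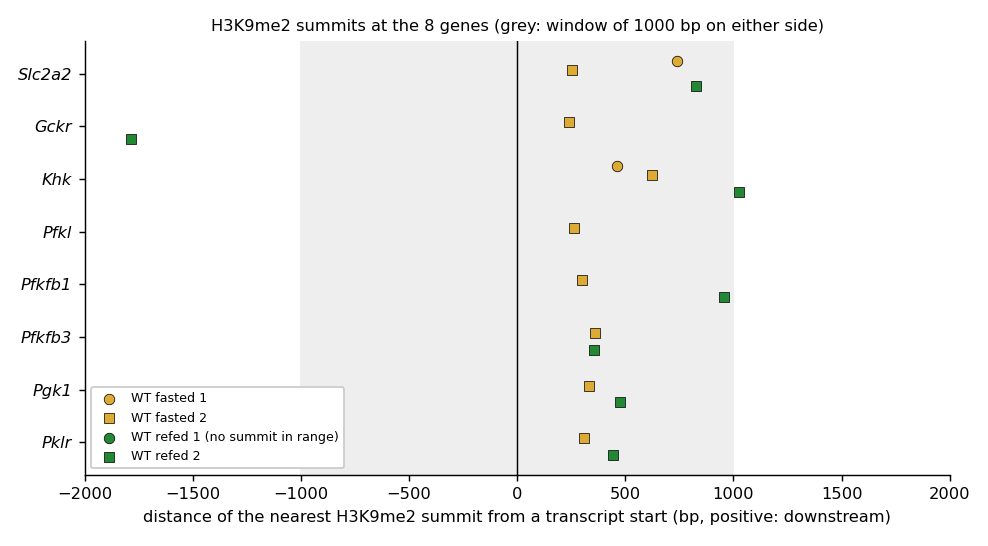
Distance in bp of the nearest H3K9me2 summit from a transcript start of each gene, in the 4 WT livers (yellow fasted, green refed, circles replicate 1, squares replicate 2), positive downstream. Summits farther than 2000 bp are not drawn, and the grey band is the window of 1000 bp on either side. Within the band every point, the nearest summit of a gene, lies to the right of the start, and WT refed replicate 1 has no point.

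ATAC-seq summits were absent from the starts of these genes in nearly every liver. Pfkfb3 had one in WT fasted replicate 1, and the other 7 genes had none within 1000 bp in any of the 6 livers. Required in both livers of a group, the count was 0 of 8 after fasting, after refeeding and in JMJD1C-LKO liver, where the shares of all annotated genes were 4.36%, 4.78% and 0.397%. In single livers, 12.0% and 5.49% of all annotated genes had such a summit after fasting, 9.94% and 6.24% after refeeding, and 4.06% and 0.886% in JMJD1C-LKO liver. For the genes tested in RNA-seq these shares were 20.2% and 9.28%, 16.7% and 10.5%, and 6.66% and 1.31%. The lists held 5220 and 7632, 5027 and 3119, and 1450 and 825 summits in the same order. The count of 1 of 8 in WT fasted replicate 1 stood beside 12.0% of all annotated genes and that of 0 of 8 in the other 5 livers beside at most 9.94%. A missing summit says only that none was called at this depth, which the lists do not give. Slc2a2, Khk, Pklr and Pgk1, all well expressed in the refed WT liver, were among the genes without one.

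The Pfkfb3 summit lay at position 11502039 of chromosome 2, in an exon, 51 bases downstream of the start at 11502090, with a score (−log10 of the q-value) of 6.89 and rank 1780 of 5220 in that liver. The 300 bases around this start (chr2:11501940-11502239, minus strand, RefSeq GRCm38.p6) are shown because they hold the only start of the 8 genes at which an ATAC-seq summit was called, in 1 of 6 livers. The summit is base 201 from the 5′ end, and the E-box in capitals begins 104 bases before it.
Pfkfb3: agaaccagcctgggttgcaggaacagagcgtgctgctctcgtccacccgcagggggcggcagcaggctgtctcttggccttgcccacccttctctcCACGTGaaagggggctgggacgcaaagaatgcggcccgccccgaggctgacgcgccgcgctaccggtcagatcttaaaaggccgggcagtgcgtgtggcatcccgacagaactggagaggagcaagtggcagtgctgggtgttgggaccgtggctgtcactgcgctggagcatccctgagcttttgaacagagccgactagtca
In WT fasted replicate 1 the gene held 3 ATAC-seq summits, the one at this start included. Farther up the gene, in an intron between the 2 starts, WT fasted replicate 2 and WT refed replicate 1 had summits 18112 and 18415 bp downstream of the upstream start at 11553929. Slc2a2 had an intronic summit 16525 bp downstream of its start in WT fasted replicate 1. No other member had an ATAC-seq summit inside the gene in any liver.

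In the pathway lists around these 8, the H3K9me2 counts were likewise 0 in WT refed replicate 1. Of the genes tested in RNA-seq, 51.6% and 74.1% had an H3K9me2 summit at a start after fasting, and 0.123% and 61.6% after refeeding. For ATAC-seq these shares were 20.2% and 9.28% after fasting, 16.7% and 10.5% after refeeding, and 6.66% and 1.31% in JMJD1C-LKO liver. In the list of other glycolytic enzymes, 10 and 13 of 21 genes had an H3K9me2 summit at a start after fasting and 0 and 11 after refeeding, and 2, 1, 3 and 3 had an ATAC-seq summit in the 4 WT livers against 0 in both JMJD1C-LKO livers, where 4.06% and 0.886% of all annotated genes had one and the lists were the shortest. Of 17 genes of the fate of pyruvate, 5 and 3 had an ATAC-seq summit after fasting, 9 and 3 after refeeding and 3 and 1 in JMJD1C-LKO liver. The other 5 lists had at most 1 gene with one in either JMJD1C-LKO liver. Of 18 regulators of glycolytic genes, 17 and 17 had an H3K9me2 summit after fasting and 0 and 15 after refeeding. For all annotated genes the shares were 29.3% and 42.7% after fasting and 0.233% and 35.1% after refeeding.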

How the data were processed

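RNA-seq, ATAC-seq and H3K9me2 ChIP-seq of mouse liver were used, 2 samples per group. The RNA-seq table deposited by the authors gives unscaled estimated counts of RefSeq transcripts. The labels list HISAT2, Partek and DESeq2 3.5 for the series with no role, and the counting method is not given in the sources used here. For the peak assays the authors deposited MACS2 summits per sample (MACS2 2.1.1 per the labels, mm10), scored by the −log10 of its q-value. ATAC-seq reads had been aligned with BWA-backtrack and ChIP-seq reads with Bowtie2, keeping unique alignments. Peaks passed a q-value of 0.05 and a minimum enrichment, in ChIP-seq over the matching input. Replicates were not pooled, and the lists carry no depth per sample, for which the study gives only 1 approximate read number. A second deposited table holds only the authors' own comparison and a pooled total, and was not used.

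Whether a liver was fasted or refed was read from the sample titles and the study's description, since the labels give 1 treatment text for all. Counts were summed per gene, rounded, filtered with filterByExpr, scaled by TMM and tested in edgeR 4.0.16 (quasi-likelihood F test, R 4.3.3) with Benjamini-Hochberg adjustment. DESeq2 1.42.0 was an alternative. CPM are TMM-scaled, and CPM per kb divides by RefSeq transcript length weighted by counts. The SE is the log2 fold change over the square root of F. Replicates differed beyond counting noise (chi-square per degree of freedom 12.3 and 31.1), so none was a duplicate, and with pooled RNA the p-values measure the spread between pools. The scripts were tested on simulated data.

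Summits were placed by RefSeq GRCm38.p6, the build named mm10, with a summit at a start when within 1000 bp, and positions are 1-based. Promoter windows came from RefSeq, with all 8 genes matched. Scores were not compared between livers. The genes named are the 8, the first 4 and the one with the smallest p of each pathway list, the 3 nearest in profile to the member with the largest change, and Jmjd1c. Pkm and Pfkfb4 fall outside this rule and were chosen after their values were seen. These genes and lists were chosen with earlier results of these data known. Of the lists, 2 genes are not reported here.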

Additional observations from a re-analysis of the deposited data

How the results depend on the processing

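The 3 calls among the 8 genes came to between 2 and 4 under all 8 alternatives. Those of Pklr and Pfkfb1 held in each. Without either WT library, Pfkfb3 gave 0.35 and 0.54, and 0.27 without LKO replicate 2, none called (range when leaving out each library, 0.269 to 0.591). Pgk1 passed in DESeq2 (0.278) and with the block (0.282). Leaving out each library gave −0.258 to 0.13 for Slc2a2 and −0.072 to 0.045 for Pfkl, neither called. The range was 1068 to 5180 for all genes called (3958), 17 to 50 for pathway genes (35) and 0 to 40 for transcripts (781). Uncalled genes near 0 changed sign: Srebf1 gave 0 with RLE factors and 0.001 in DESeq2, and −0.285 to 0.232 when leaving out each library, Glyctk −0.1 to 0.021 and Usf1 −0.004 to 0.166. The cause was not tested.

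With the replicate number as a block, 4207 genes and 147 transcripts were called, with 0 of the members' transcripts, as without each library in turn. The numbers mark no shared animal or day in the labels, and deviations of equal numbers did not correlate (−0.00461), so this does not pair the samples. Glycogen list calls went from 3 to 5 with the block.

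Of the 8 genes, both fasted livers shared 2 H3K9me2 summits, against 0 within 500 bp or with as many strongest summits as the shortest list, 8 with a summit in either liver, and 2 to 8 in single livers. The refed count was 0, 5 in either liver, and 0 to 5 in single livers. The fasted ATAC-seq count of 0 became 1 (Pfkfb3) anywhere in the gene or in either liver, and ranged from 0 to 1 in single livers. The peak depth of single samples is not given in the sources used here, and 2 samples per group limit every comparison.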
